A study of Mus musculus with 9 samples.

Results

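The mitochondrial ribosomal protein genes are named for the proteins of the ribosome that works inside mitochondria. A symbol alone does not show that a product is part of that ribosome. They were taken here as every protein-coding RefSeq mouse gene whose symbol is Mrpl or Mrps followed by digits. Mrpl stands for large subunit and Mrps for small subunit proteins, although Mrps18a and Mrps30 are known to encode proteins of the large subunit. This gave 78 genes of 21896 protein-coding genes, of which 69 (43 Mrpl and 26 Mrps) had a transcription start in the promoter table used. That table held a start for 17491 protein-coding genes, which form the background below. Mrpl13, Mrpl15, Mrpl19, Mrpl38, Mrpl4, Mrpl54, Mrps28, Mrps34 and Mrps35 have no listed start and are described apart.

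The binding data came from lymphoma cells of the thymus of C57BL/6J mice, in which the T cell lymphoma is driven by MYCN, the gene for N-MYC. ChIPmentation, a chromatin immunoprecipitation in which the sequencing adapters are inserted into the precipitated chromatin by a transposase, was done with 7 antibodies, against N-MYC, EZH2, SUZ12, p300, H3K4me3, H3K27ac and H3K27me3. Each antibody had 1 library and 1 deposited peak list, and 2 input libraries without a list were not used. All lists come from lymphoma cells, so no normal T cell, other tumour or treatment is compared, and there is no replicate spread. The age and sex of the mice, the construct that expresses MYCN and the number of tumours behind the libraries are not given in the sources used here. The lists held between 9798 peaks (N-MYC) and 123056 peaks (H3K27me3), and the number of reads behind them is unknown. Of 10 T cell markers, 8 had a listed start, and all 8 had an H3K4me3 peak there, with fold enrichments of 24.32 to 41.75. Among markers of other cells, H3K4me3 peaks were found at 1 of 2 B cell, 1 of 3 myeloid, 1 of 5 thymic epithelial, 0 of 1 fibroblast and 1 of 1 erythroid genes with a start. The B cell and myeloid peaks had fold enrichments of 4.74 and 6.807, and the epithelial and erythroid peaks 19.26 and 19.79. Whether such cells contributed to the peaks described below was not tested.

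The mitochondrial ribosome translates the few messages encoded by mitochondrial DNA, which specify core subunits of the respiratory chain and the ATP synthase. All of its proteins are encoded in the nucleus, made in the cytosol and imported. N-MYC is a transcription factor of the MYC family, which binds DNA together with MAX at E-box sequences such as CACGTG and is known to act at many genes of ribosome production and of mitochondria. H3K4me3 marks active promoters, and p300 is an acetyltransferase that places H3K27ac. EZH2 is the catalytic subunit of the Polycomb complex PRC2, SUZ12 is its core partner, and H3K27me3 is the repressive mark it places. The title of the study names EZH2 as a transcriptional activator in these lymphomas, so EZH2 peaks at active promoters were read beside SUZ12 and H3K27me3.

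The promoters of 10 members are printed first, since the results on N-MYC refer back to them. Each is the stretch before the start, 5′ to 3′ on the strand of the gene, from the RefSeq promoter table on GRCm38.p6. Capitals mark every occurrence, on either strand, of the E-boxes CACGTG and CACGCG and of the motifs GCGCATGCG (NRF1, a regulator of nuclear genes for mitochondria), CCGGAAGT (ETS family) and AAGATGGCG (YY1). The first 3 are the members with the strongest N-MYC peaks among those with CACGTG before the start. Mrpl36 is at chr13:73330759-73331008 on the plus strand, Mrpl20 at chr4:155802628-155802877 on the plus strand and Mrpl2 at chr17:46646081-46646220 on the plus strand, where the sequence stops at the start of the neighbouring gene Klc4.
Mrpl36: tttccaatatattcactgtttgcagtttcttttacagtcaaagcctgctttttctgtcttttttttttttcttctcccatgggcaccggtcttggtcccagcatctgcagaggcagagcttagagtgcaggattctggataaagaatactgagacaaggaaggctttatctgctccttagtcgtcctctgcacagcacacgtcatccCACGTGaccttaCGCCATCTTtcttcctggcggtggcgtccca
Mrpl20: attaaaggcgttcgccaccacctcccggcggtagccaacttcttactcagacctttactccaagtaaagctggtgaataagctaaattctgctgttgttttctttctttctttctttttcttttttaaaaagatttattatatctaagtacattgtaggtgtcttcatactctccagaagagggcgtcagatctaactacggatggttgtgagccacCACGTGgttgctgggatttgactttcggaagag
Mrpl2: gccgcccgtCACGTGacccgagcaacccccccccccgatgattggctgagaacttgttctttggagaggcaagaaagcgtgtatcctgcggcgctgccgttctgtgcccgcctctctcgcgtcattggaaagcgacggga
The next pair, Mrpl23 (chr7:142532782-142533031, plus strand) and Mrpl47 (chr3:32736756-32737005, minus strand), had the strongest N-MYC peaks of all 69 members and hold no capital letter.
Mrpl23: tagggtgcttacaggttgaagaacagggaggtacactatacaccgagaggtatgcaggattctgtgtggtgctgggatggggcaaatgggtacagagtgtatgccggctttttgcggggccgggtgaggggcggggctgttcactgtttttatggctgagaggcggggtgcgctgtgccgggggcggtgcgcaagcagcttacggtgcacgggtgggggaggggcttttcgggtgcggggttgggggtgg
Mrpl47: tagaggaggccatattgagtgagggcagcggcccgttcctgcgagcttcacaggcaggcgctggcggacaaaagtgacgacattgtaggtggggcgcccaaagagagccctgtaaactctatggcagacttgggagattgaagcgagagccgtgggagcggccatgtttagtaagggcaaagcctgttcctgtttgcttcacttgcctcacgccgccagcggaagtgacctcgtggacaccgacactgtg
Mrpl53 (chr6:83108858-83109107, plus strand) and Mrps22 (chr9:98601680-98601929, minus strand) had the strongest H3K4me3 peaks among the members without an N-MYC peak.
Mrpl53: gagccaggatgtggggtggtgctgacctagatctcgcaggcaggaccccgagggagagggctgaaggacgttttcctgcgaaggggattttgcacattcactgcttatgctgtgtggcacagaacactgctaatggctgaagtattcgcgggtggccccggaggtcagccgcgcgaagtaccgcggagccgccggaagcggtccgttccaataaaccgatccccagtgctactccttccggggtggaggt
Mrps22: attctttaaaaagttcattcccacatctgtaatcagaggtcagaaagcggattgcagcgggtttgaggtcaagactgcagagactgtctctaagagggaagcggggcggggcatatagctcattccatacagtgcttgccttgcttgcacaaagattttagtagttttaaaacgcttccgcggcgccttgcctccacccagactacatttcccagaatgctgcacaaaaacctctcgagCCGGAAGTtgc
The last 3 were chosen after their values were seen. Mrpl45 (chr11:97315466-97315715, plus strand) has the most CACGCG, Mrpl32 (chr13:14613038-14613241, minus strand, up to the start of Psma2) has the most GCGCATGCG, and the third is the whole stretch between the starts of Mrpl46 and Mrps11 (chr7:78783090-78783130, on the strand of Mrps11).
Mrpl45: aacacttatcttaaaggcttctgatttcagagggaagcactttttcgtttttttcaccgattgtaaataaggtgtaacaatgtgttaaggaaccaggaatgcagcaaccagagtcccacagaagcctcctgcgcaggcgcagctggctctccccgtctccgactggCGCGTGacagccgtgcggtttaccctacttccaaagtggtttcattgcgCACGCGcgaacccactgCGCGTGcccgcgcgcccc
Mrpl32: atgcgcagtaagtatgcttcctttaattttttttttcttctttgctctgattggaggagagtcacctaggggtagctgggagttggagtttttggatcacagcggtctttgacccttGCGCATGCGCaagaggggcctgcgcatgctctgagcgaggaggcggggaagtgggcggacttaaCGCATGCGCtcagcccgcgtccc
Mrps11: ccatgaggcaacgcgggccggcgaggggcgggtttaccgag

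Every one of the 69 starts carried both marks of an active promoter. A peak was counted when it reached within 1 kb of the start, and the strongest one stood for the start. Its fold enrichment is the ratio of signal over background that the authors' peak caller gave. H3K4me3 and H3K27ac peaks were each present at 69 of 69 members (100%, 95% Wilson interval 94.7 to 100), against 51.1% and 51.0% of all protein-coding genes. Of the 8935 genes with an H3K4me3 peak, 93.1% had H3K27ac. No member had a SUZ12 peak, which allows a share of up to 5.27% (upper bound of the interval). Such a peak lay at 12.3% of all genes and at 9.09% of genes with H3K4me3. H3K27me3 was found at 23.7% of all genes, at 13.6% of genes with H3K4me3 and at 1 member, Mrpl23. The peak there was weak (fold enrichment 2.848) with its summit 537 bp before the start (−537 bp). All intervals here cover counting error only.

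N-MYC peaks lay at 51 of the 69 starts (73.9%, interval 62.5 to 82.8), compared with 33.2% of all genes. Because all members have H3K4me3, the closer background is the set of genes with an H3K4me3 peak, of which 64.7% had N-MYC, a value inside the interval of the members. EZH2 peaks lay at 60 members (87.0%, 77.0 to 93.0), against 44.9% of all genes and 73.5% of genes with H3K4me3. p300 peaks lay at 65 members (94.2%, 86.0 to 97.7), against 39.8% and 77.4%. For EZH2 and p300 the share among genes with H3K4me3 fell below the interval of the members. This comparison was made on the full lists only. Read apart for starts with and without a close opposite-strand gene (below), the EZH2 background lay inside both intervals of the members. The p300 background lay below the members' interval only at starts without such a gene. The lists end at the authors' threshold and differ in length. When only the top 9798 peaks by p-value of each list were kept, the length of the N-MYC list, EZH2 was left at 46.4% of members and 33.7% of all genes, and the 3 factors together at 33.3% and 19.0%. A missing peak therefore means that no call was made at this threshold, and not that the protein was absent.

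**Figure D1:**
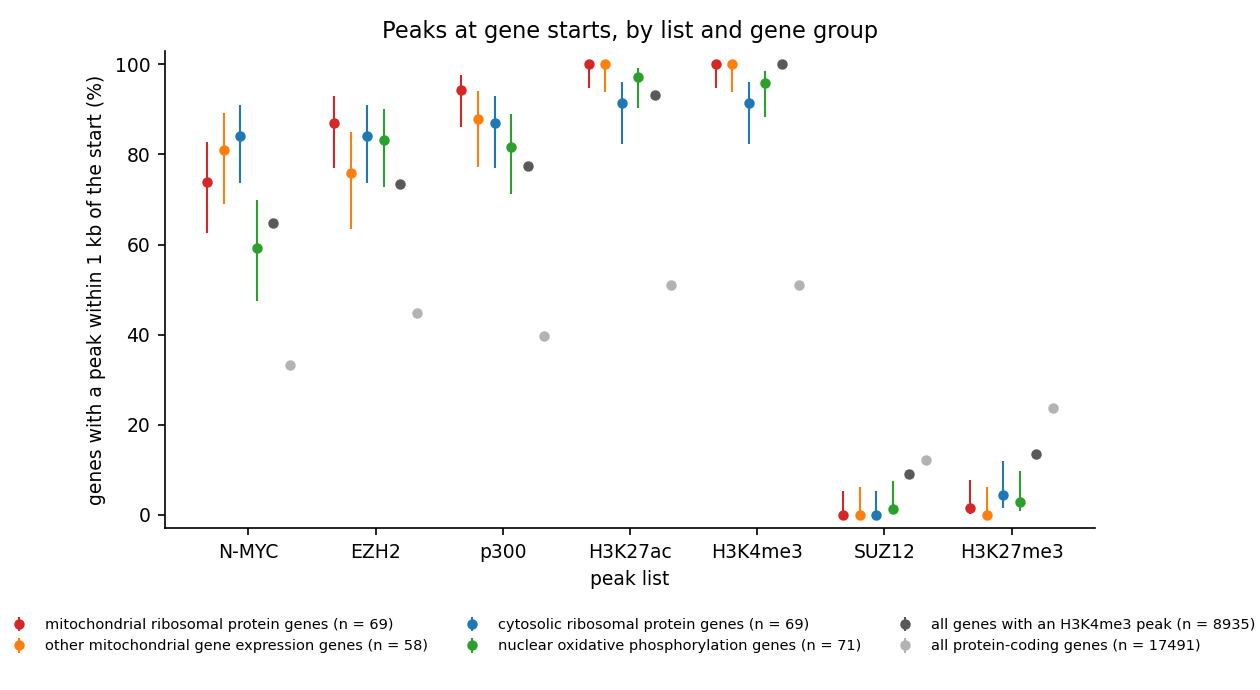
Share of genes with a peak within 1 kb of the start (y axis, percent) in each of the 7 lists (x axis), for the mitochondrial ribosomal protein genes, 3 other gene groups and the 2 backgrounds, with 95% Wilson intervals as bars. The mitochondrial ribosomal protein genes sit at 100% for H3K27ac and H3K4me3, at 94.2% for p300, 87.0% for EZH2 and 73.9% for N-MYC, and at or near 0 for SUZ12 and H3K27me3.

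N-MYC, EZH2 and p300 peaks were found together at 46 members (66.7%, 54.9 to 76.6), compared with 26.2% of all genes and 51.4% of genes with H3K4me3. With peaks of a fold enrichment of at least 4 alone, the members' share was 43.5% and that of all genes 20.3%. Genes with H3K4me3 were not read at this setting. Of the 46, 45 had H3K4me3 and H3K27ac and neither SUZ12 nor H3K27me3 (97.8%), the exception being Mrpl23, against 94.8% of all 4590 genes with the 3 factors. It was found at 65.2% of the 69 members, 24.9% of all genes and 48.7% of genes with H3K4me3. None of the 69 lacked all 3 factors. EZH2 and p300 without N-MYC was the next most frequent combination, at 10 members (14.5%, against 11.2% of genes with H3K4me3): Mrpl27, Mrpl33, Mrpl46, Mrpl53, Mrpl9, Mrps10, Mrps11, Mrps12, Mrps14 and Mrps22. Mrps12 belongs to the decoding centre of the small subunit. Of the 3 factors, only p300 was called at Mrpl10, Mrpl16, Mrpl58, Mrps17 and Mrps21 (7.25%, against 5.74%). Mrpl58 is a peptidyl-tRNA hydrolase that frees stalled chains. EZH2 alone was called at Mrpl28, Mrpl3 and Mrps25 (4.35%, against 8.49%). N-MYC and p300 without EZH2 were called at Mrpl22, Mrpl37, Mrpl44 and Mrpl45 (5.8%, against 9.09%), and N-MYC and EZH2 without p300 at Mrps18a (1.45%, against 2.46%). The paralogues Mrps18a, Mrps18b and Mrps18c, whose products occupy separate sites in the ribosome, all had N-MYC (9.044, 8.511 and 4.362) and EZH2 (4.606, 8.009 and 6.187), and p300 was called at Mrps18b (7.631) and Mrps18c (4.526). The EZH2 summit of Mrps18b (−752 bp) lay at the start of the neighbouring gene Ppp1r10. At Mrps18c the N-MYC (−214 bp) and EZH2 (−276 bp) summits lay beyond the start of Helq, 159 bp away.

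The 9 members without an EZH2 peak had weaker H3K4me3 than the rest, with a median fold enrichment of 22.76 (15.95 to 29.57) against 29.38 (13.58 to 42.34) at the 60 with EZH2. The first range lies inside the second. By N-MYC the medians were closer, at 29.43 for the 51 with a peak and 26.27 (15.95 to 40.58) for the 18 without. Mrpl53 is the clearest case of strong marks without N-MYC. Its H3K4me3 fold enrichment of 40.58 was second among the members and its EZH2 peak of 7.718 was among the 5 highest, while its p300 peak was weak at 3.4.

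Strength was read within each list, since fold enrichment cannot be compared between antibodies. H3K4me3 at the members had a median fold enrichment of 28.72 (13.58 to 42.34), against 26.63 over all genes with a peak, and a median peak width of 2528 bp, against 2505 bp. The median member stood at percentile 57.2 of all genes with an H3K4me3 peak. H3K27ac had a median of 12.53 (6.367 to 27.65), against 12.41, at percentile 50.9. The mark strength of these promoters was thus in the middle of the range for marked promoters, with few weak ones. Only 5 members for H3K4me3 and 7 for H3K27ac fell in the lowest 25% of genes with a peak. Mrps18b had the highest value for both marks (42.34 and 27.65). Mrpl17 (39.62), Mrpl18 (39.09) and Mrpl47 (38.85) followed Mrpl53 for H3K4me3. The H3K4me3 summits of Mrps18b (−997 bp), Mrpl18 (−677 bp) and Mrpl47 (−596 bp) lay inside a neighbouring gene on the opposite strand. These neighbours were Ppp1r10, Tcp1 and Ndufb5, which start 756, 238 and 308 bp away. The H3K27ac summit of Mrps18b (−1510 bp) also lay inside Ppp1r10. These values cannot be assigned to the members alone. Mrpl57 (22.9), Mrpl47 (22.7) and Mrpl36 (21.47) followed for H3K27ac. The lowest H3K4me3 values were at Mrps5 (13.58), Mrps17 (15.95), Mrpl33 (16.05), Mrps33 (16.25) and Mrpl22 (16.84). H3K27ac was lowest at Mrpl20 (6.367), Mrps18c (6.896), Mrpl28 (6.937) and Mrpl39 (6.945).

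The factors spread differently around their backgrounds. N-MYC peaks at members had a median fold enrichment of 6.673 (2.524 to 16.16), against 6.01 over all genes with a peak, and 19 of 51 (37.3%) were in the highest 25% of these genes. EZH2 went the other way. Its median was 5.024 (2.943 to 8.802), against 5.827, and 27 of 60 (45.0%) were in the lowest 25% and 5 (8.33%) in the highest 25%. p300 had a median of 4.998 (2.993 to 8.626), against 5.395. EZH2 peaks were therefore frequent at these starts but mostly of low strength.

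Mrpl23, whose product lines the exit tunnel of the large subunit, had the strongest N-MYC peak at 16.16, percentile 99.3 of all genes with one. Its EZH2 peak was low at 4.265, and its H3K4me3 at 28.8 was near the median. Mrpl47 (12.75), Mrpl52 (11.83), Mrps30 (9.818) and Mrpl45 (9.69) came next for N-MYC. Mrpl47 was high in most lists, with p300 at 8.487, H3K27ac at 22.7 and H3K4me3 at 38.85. Mrpl52 and Mrpl45 were not, since EZH2 at Mrpl52 was among the 5 lowest (3.482) and Mrpl45 had no EZH2 peak and an H3K4me3 value of 18.88. The weakest N-MYC peaks were at Mrpl34 (2.524), Mrpl39 (2.617), Mrpl14 (3.606), Mrpl21 (3.872) and Mrps24 (4.248). Mrpl34 had the strongest p300 peak of all members (8.626), followed by Mrpl18 (8.624) and Mrpl41 (8.5). The p300 summit of Mrpl41 (−994 bp) lay beyond the start of Pnpla7, 935 bp away. EZH2 was strongest at Mrps30 (8.802), Mrpl48 (8.405), Mrpl17 (8.207) and Mrps18b (8.009), and weakest at Mrps5 (2.943) and Mrps25 (3.433). The EZH2 summit of Mrps18b (−752 bp) lay at the start of Ppp1r10, 756 bp away, so this value cannot be assigned to Mrps18b alone. p300 was weakest at Mrps24 (2.993), Mrps7 (3.062) and Mrps10 (3.123).

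Members with central roles in the ribosome did not share 1 pattern. Mrpl12, which forms the stalk that recruits translation factors, had N-MYC at 6.559, EZH2 at 6.828, p300 at 6.309 and H3K4me3 at 27.12. Mrps16 had N-MYC at 6.646, EZH2 at 4.787, p300 at 6.14 and H3K4me3 at 24.72. Mrps2 had lower factor peaks, with N-MYC at 4.444, EZH2 at 3.565 (among the 5 lowest members) and p300 at 3.532, beside an H3K4me3 value of 27.99. Mrpl3, which reaches towards the peptidyl transferase centre, and Mrps22 had no N-MYC peak although their H3K4me3 values, 34.66 and 34.97, were in the highest 25% of genes with a peak.

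**Figure D2:**
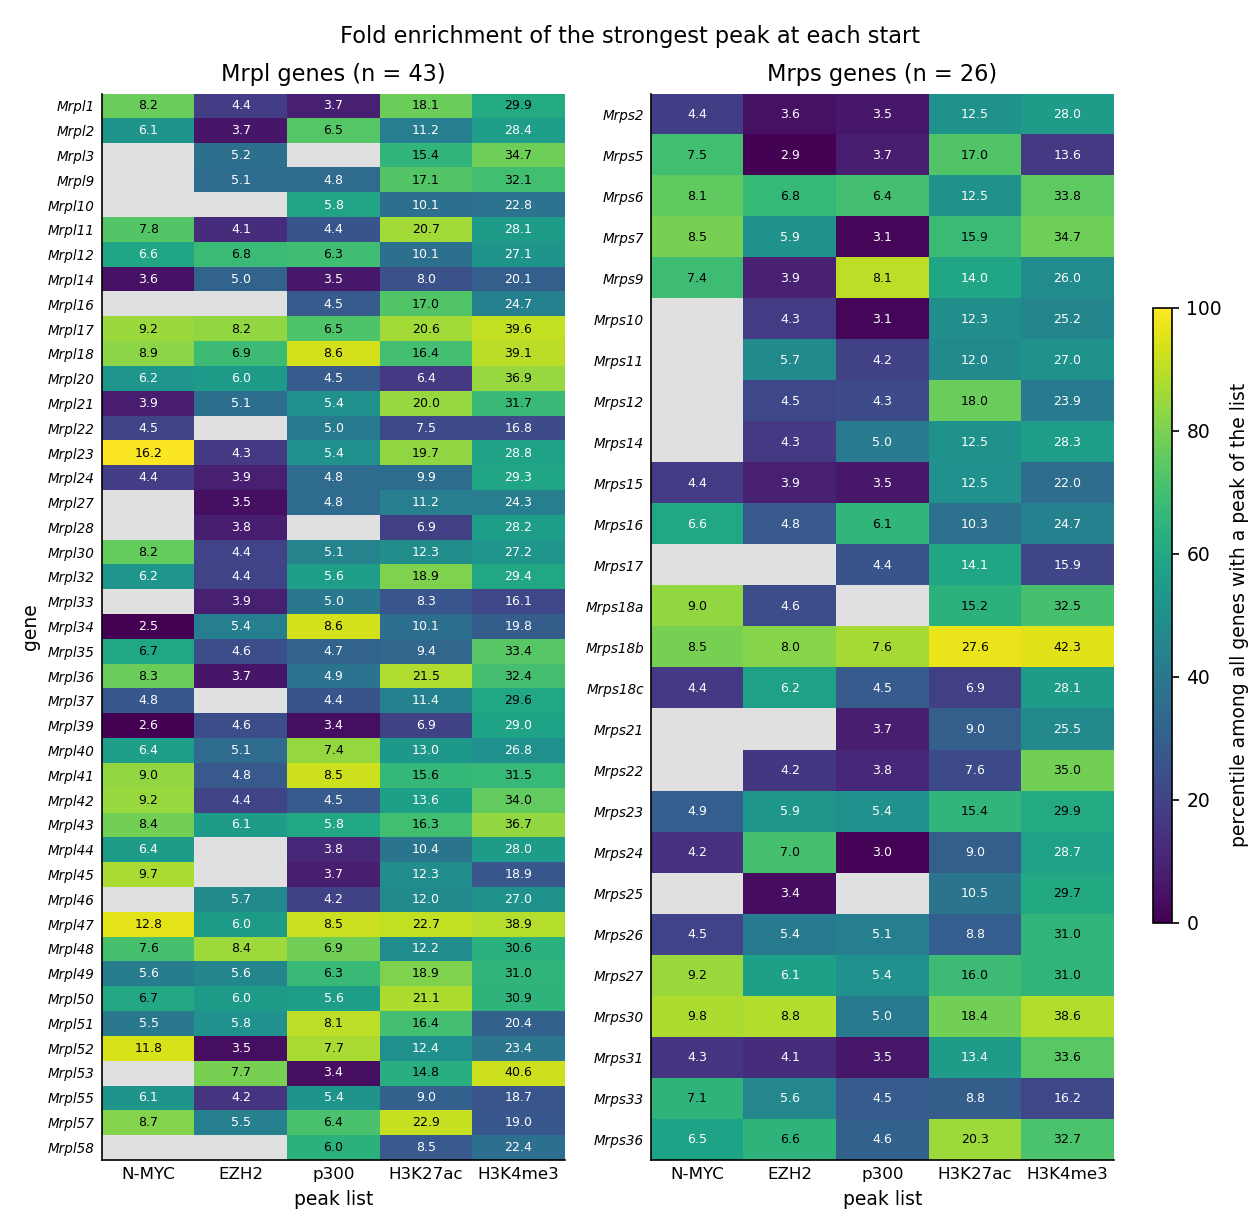
Fold enrichment (numbers) of the strongest peak within 1 kb of the start for all 69 members (rows) in 5 lists (columns), with Mrpl genes on the left and Mrps genes on the right. Colour gives the percentile of the value among all genes with a peak of that list and grey means no peak, so the EZH2 columns are mostly dark while the H3K4me3 columns hold no grey cell.

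The Mrpl and Mrps genes had overlapping intervals in these lists. In this split by symbol, Mrps18a and Mrps30 count as Mrps. N-MYC lay at 33 of 43 Mrpl genes (76.7%, 62.3 to 86.8) and 18 of 26 Mrps genes (69.2%, 50 to 83.5). EZH2 lay at 36 (83.7%, 70 to 91.9) and 24 (92.3%, 75.9 to 97.9), and p300 at 41 (95.3%) and 24 (92.3%). Median H3K4me3 fold enrichments were 28.8 and 28.51. The split by descent gave overlapping intervals too. In a list of 43 members with a bacterial homologue, N-MYC lay at 30 (69.8%, 54.9 to 81.4), EZH2 at 38 (88.4%) and p300 at 40 (93.0%). Among the 26 others, N-MYC lay at 21 (80.8%, 62.1 to 91.5), EZH2 at 22 (84.6%) and p300 at 25 (96.2%). The first list includes Mrpl55, a mitochondria-specific protein placed there in error, which had all 3 factors.

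Factor shares rise with H3K4me3 strength over all genes, so members were read within 3 bands of H3K4me3 fold enrichment that hold like numbers of genes (limits 21.23 and 31.3). The members held 11, 37 and 21 genes in the lower, middle and upper band. In the middle band N-MYC lay at 25 of 37 members (67.6%) and 70.9% of genes, EZH2 at 31 (83.8%) and 79.5%, and p300 at 35 (94.6%) and 88.1%. In the upper band N-MYC lay at 17 of 21 (81.0%) and 82.4%, EZH2 at 21 (100%) and 97.6%, and p300 at 19 (90.5%) and 96.7%. In each of these comparisons the share of genes was inside the interval of the members. The lower band differed more, with N-MYC at 9 of 11 (81.8%, 52.3 to 94.9) against 40.7%, EZH2 at 8 (72.7%, 43.4 to 90.3) against 43.5%, and p300 at 11 (100%, 74.1 to 100) against 47.4%. The members of that band have no very weak H3K4me3 peaks. Over the 1257 genes in their range, 13.58 to 20.41, the shares were 56.5% for N-MYC, 43.4% for EZH2 and 69.2% for p300. Of these, p300 and EZH2 were at or below the lower bound for the members and N-MYC was inside the interval.

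**Figure D3:**
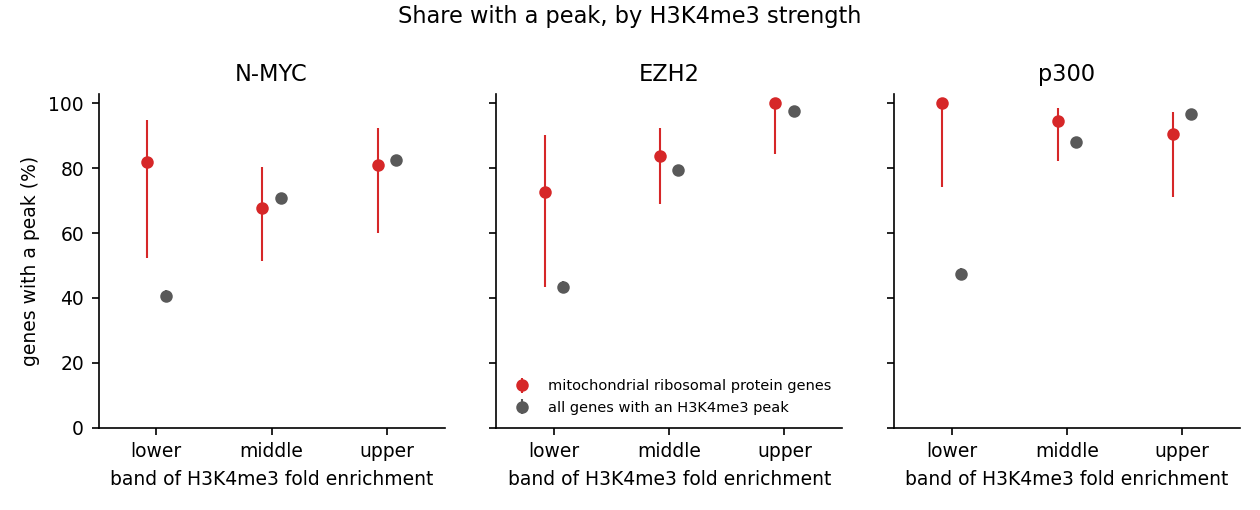
Share of genes with an N-MYC, EZH2 or p300 peak (y axis, percent) in 3 bands of H3K4me3 fold enrichment (x axis), for the members (with 95% Wilson intervals) and for all genes with an H3K4me3 peak. The 2 sets lie close together in the middle and upper band, and the members are higher in the lower band, for example 81.8% against 40.7% for N-MYC.

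Across members, EZH2 strength followed H3K4me3 as it did across the genome. Spearman's rho between their fold enrichments was 0.463 over 60 members and 0.459 over 6569 genes. For N-MYC and H3K27ac it was 0.535 over 51 members and 0.355 over 5720 genes, and for N-MYC and H3K4me3 0.33 and 0.179. For p300 and H3K4me3 it was 0.0976 over 65 members and 0.258 over 6915 genes. These are correlations across genes within 1 set of libraries, which share chromatin and mappability at each start, and are given as a description. The lower EZH2 strength of the members was seen in the middle band of H3K4me3 (median 4.439 against 5.006) and the upper band (5.858 against 6.771), and not in the lower band (5.209 against 4.986). For N-MYC the members' medians were higher in each band, at 6.136, 6.353 and 8.511 against 5.421, 5.944 and 6.477.

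**Figure D4:**
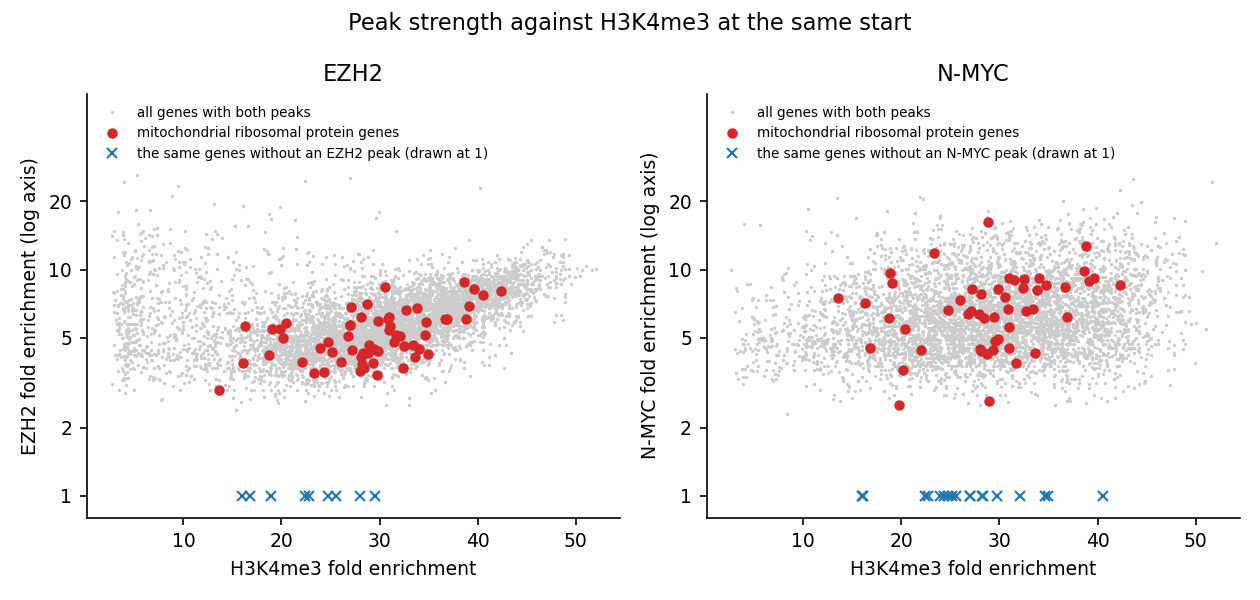
Fold enrichment of EZH2 (left) and N-MYC (right) on a log axis against H3K4me3 fold enrichment at the same start, for all genes with both peaks (grey) and the members (red), with members that have no such peak drawn at 1 (crosses). EZH2 rises with H3K4me3 in the members (rho 0.463), and the members without EZH2 lie at H3K4me3 values of 15.95 to 29.57.

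N-MYC and p300 sat on the start, while EZH2 and the marks sat further into the gene, a layout also seen over all genes. N-MYC summits lay within 250 bp of the start at 41 of 51 members (80.4%), against 73.1% of genes, with a median distance of 112 bp. p300 summits did so at 51 of 65 (78.5%), against 64.1%. The median EZH2 summit was 190 bp into the gene and the median H3K4me3 summit 221 bp, against 275 and 289 bp over all genes with a peak. At the same start, EZH2 and H3K4me3 summits were a median of 114 bp apart (60 members), against 113 bp over all genes. N-MYC and p300 summits were 180 bp apart (50 members), against 161 bp. N-MYC and EZH2 summits were 256 bp apart (47 members), against 318 bp. Mrpl20 was an exception, with summits of N-MYC at 607 bp, p300 at 839 bp, EZH2 at 971 bp and H3K4me3 at 904 bp into the gene. These lie far from the listed start and from the CACGTG printed above.

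A large part of these starts face another gene. A protein-coding gene on the opposite strand started within 1 kb upstream of 23 members (33.3%), against 7.52% of all genes and 14.0% of genes with H3K4me3. Mrpl46 and Mrps11 form such a pair, 42 bp apart, and share the same H3K4me3 (27.02), H3K27ac (12), EZH2 (5.694) and p300 (4.153) peaks, with no N-MYC peak. Other near pairs were Mrpl21 with Ighmbp2 (32 bp), Mrpl27 with Eme1 (48 bp) and Mrpl30 with Mitd1 (66 bp). Mrps6 starts 14 bp from Slc5a3 on the same strand. Some partners also serve mitochondria, such as Sars2, a mitochondrial seryl-tRNA synthetase that starts 147 bp from Mrps12, and Ndufb5, a complex I subunit that starts 308 bp from Mrpl47. At such starts a peak cannot be assigned to either gene.

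The 23 divergent members had wider H3K4me3 peaks than the 46 others (median 3262 against 2246 bp). Their H3K4me3 summits lay inside the member gene in 52.2% of cases, against 93.5%. N-MYC summits shifted from a median of 50.5 bp inside the gene to 112 bp before the start (−112 bp), towards the space between the genes. EZH2 summits shifted from 235 to −187 bp. N-MYC lay at 19 of the 23 (82.6%, 62.9 to 93.0) and 32 of the 46 (69.6%), EZH2 at 22 (95.7%, 79.0 to 99.2) and 38 (82.6%), and p300 at 23 (100%, 85.7 to 100) and 42 (91.3%). Divergent genes outside the group that have H3K4me3 (1228) showed the same layout, with a median width of 3195 bp, 48.3% of H3K4me3 summits inside the gene and a median N-MYC summit of −95 bp. Of these, 75.9% had N-MYC, 84.0% EZH2 and 93.1% p300, each inside the interval of the divergent members. The 7638 other genes with H3K4me3 had N-MYC at 62.8%, EZH2 at 71.7% and p300 at 74.7%. The N-MYC and EZH2 shares were inside the intervals of the 46 members (55.2 to 80.9 and 69.3 to 90.9). For p300 the share was below their interval (79.7 to 96.6).

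**Figure D5:**
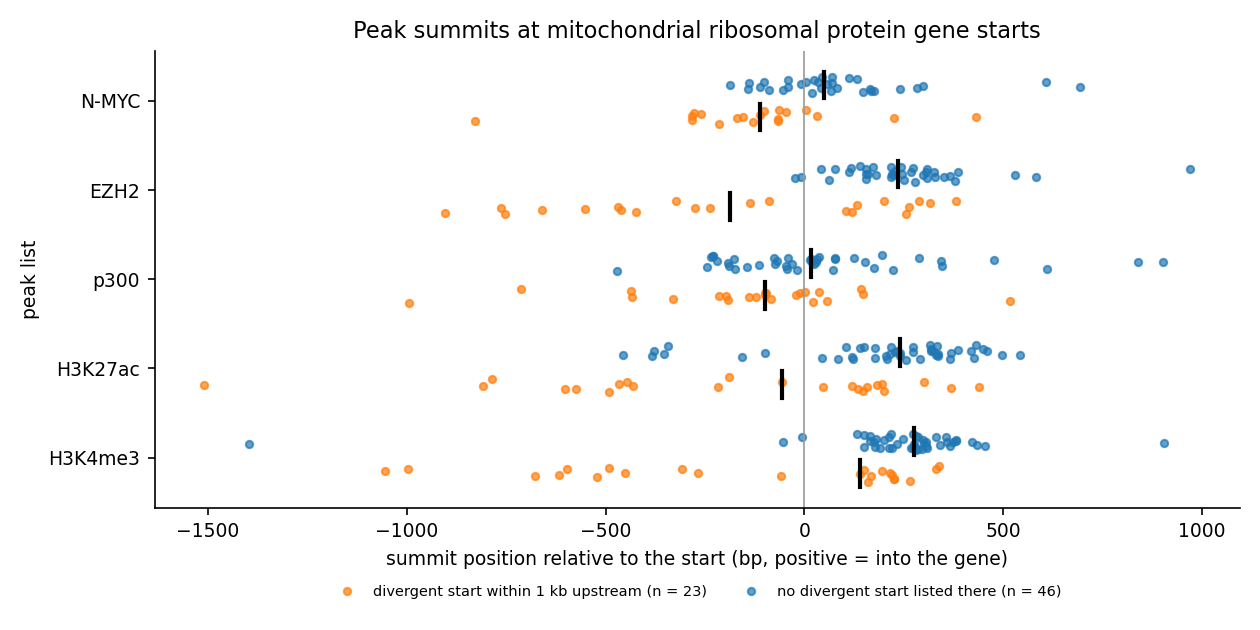
Position of the strongest peak's summit relative to the start (x axis, bp, positive into the gene) for each member with a peak in 5 lists (y axis), split by whether a divergent gene starts within 1 kb upstream, with medians as bars. Summits of the 23 divergent members spread to the left of the start, with an N-MYC median of −112 bp against 50.5 bp at the 46 others.

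Motifs were counted on both strands of the 300-base window from 250 bases before the start to 50 after it. CACGTG was present at 5 members (7.25%), near its share of all genes (7.91%) and of genes with H3K4me3 (10.8%). The 5 were Mrpl2, Mrpl20, Mrpl36, Mrpl37 and Mrps18c, and each had an N-MYC peak, with fold enrichments of 4.362 to 8.282. An N-MYC peak was also found at 746 of the 966 genes with H3K4me3 and CACGTG. The N-MYC summit lay 2 bp from the motif at Mrpl2, 5 bp at Mrpl37 and 54 bp at Mrps18c, but 323 bp at Mrpl36 and 637 bp at Mrpl20. CACGCG was present at 12 members (17.4%, against 12.2% of genes and 19.6% of genes with H3K4me3). Of these, 11 had N-MYC, and in 10 of the 11 the summit was within 100 bp of the nearest copy. At Mrpl45 the nearest of 4 copies was 4 bp from the summit, and 3 of them are in the sequence printed above. Over genes with H3K4me3, 1400 of 1751 with CACGCG had N-MYC. N-MYC summits were also within 100 bp of GCGCATGCG at 4 of 5 members, of CCGGAAGT at 4 of 7 and of AAGATGGCG at 3 of 7. Window and summits both lie near the start, and these distances were not read over all genes. Either E-box was present at 16 of the 51 members with N-MYC (31.4%, 20.3 to 45.0) and at 1 of the 18 without, Mrpl16 (5.56%, 0.988 to 25.8). Among genes with H3K4me3 the shares were 34.0% with N-MYC and 17.3% without. The other 35 members with N-MYC had neither E-box in the window. At 20 of these 35 the N-MYC summit lay outside the window, Mrpl23 among them (299 bp into the gene), so the sequence under the summit was not searched. At the other 15 the summit lay inside it, as at Mrpl47 (−101 bp). The E-boxes were at 14 of 43 Mrpl genes (32.6%, 20.5 to 47.5) and 3 of 26 Mrps genes (11.5%, 4.0 to 29.0).

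The longer motifs had low counts. For AAGATGGCG and GCGCATGCG both backgrounds lay below the interval of the members. AAGATGGCG was at 8 members (11.6%, 5.99 to 21.2), against 1.92% of all genes and 3.58% of genes with H3K4me3. The NRF1 motif GCGCATGCG was at 7 (10.1%, 5.0 to 19.5), namely Mrpl10, Mrpl17, Mrpl22, Mrpl32, Mrpl39, Mrpl9 and Mrps18b, against 2.41% and 4.16%. CCGGAAGT was at 11 (15.9%, 9.14 to 26.3), against 5.28% and 9.54%, of which the second lies inside the interval. The NRF1 motif is palindromic in part, so at Mrpl32 2 of its 3 matches overlap. The short motifs were near or below the genes with H3K4me3, with GGGCGG at 34 members (49.3%, against 46.3% of all genes and 68.3%) and CCAAT at 27 (39.1%, against 39.2% and 39.6%). At close divergent starts the window reaches into the neighbouring gene. The AAGATGGCG of Mrps11, centred at −103.5 bp, lies inside Mrpl46, which starts 42 bp away. Motif shares were not read apart for divergent genes. A match describes letters in the window and does not show that the factor binds there.

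The 9 members without a listed start were read at both ends of the gene, so a peak there may belong to the other end. At 1 end or the other all 9 had H3K4me3 (14.19 to 32.26) and H3K27ac, 8 had N-MYC (5.155 to 12.08), 8 had p300 and 6 had EZH2. Other genes were not read at both ends, so these counts have no background share. The backgrounds given above are for 1 start per gene. None had SUZ12 or H3K27me3. Mrpl4 had neither N-MYC, EZH2 nor p300 at either end, beside an H3K4me3 value of 24.89. EZH2 was also not called at Mrpl54 and Mrps28, whose N-MYC peaks were 9.631 and 9.335. Mrpl38 had N-MYC peaks at both ends (12.08 and 5.155).

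Other gene groups show where the members stand. Genes for cytosolic ribosomal proteins were taken by symbol, so paralogues and genes named after these proteins are included, such as Rpl3l, Rpl10l and Rps19bp1. Of these 89 genes, 69 had a start. N-MYC lay at 58 of them (84.1%, 73.7 to 90.9), EZH2 at 58 (84.1%) and p300 at 60 (87.0%). Their peaks were stronger than those of the members, with medians of 8.593 against 6.673 for N-MYC, 7.419 against 5.024 for EZH2, 35.37 against 28.72 for H3K4me3 and 21.92 against 12.53 for H3K27ac. Nuclear genes for oxidative phosphorylation were also taken by symbol, so paralogues such as Cox7b2 and Cox8b are included. Of these 89 genes, 71 had a start. N-MYC was less frequent there, at 42 (59.2%, 47.5 to 69.8), with a median of 5.363, while EZH2 lay at 59 (83.1%) and p300 at 58 (81.7%). The intervals for N-MYC overlap those of the members in both cases. No H3K4me3 peak was called at 6 of the 69 cytosolic and 3 of the 71 oxidative phosphorylation genes, while every member had one. The factor shares of these groups count such genes too, and shares without them were not read. These differences were not tested, since genes of 1 library are not replicates.

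The wider machinery of mitochondrial gene expression resembled the members in its marks. Of 74 listed genes, 58 had a start, and all 58 had H3K4me3 and H3K27ac. N-MYC lay at 47 (81.0%, 69.1 to 89.1), EZH2 at 44 (75.9%, 63.5 to 85.0) and p300 at 51 (87.9%). By role, N-MYC lay at 15 of 19 genes for assembly of the mitochondrial ribosome, 8 of 11 translation factors, 10 of 12 genes for transcription and messenger RNA handling, 12 of 14 mitochondrial aminoacyl-tRNA synthetases and 2 of 2 ribosomal proteins with other names. EZH2 lay at 12, 9, 10, 11 and 2 of the same genes, and p300 at 18, 8, 11, 12 and 2.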

How the data were processed

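Per the submitters' processing notes, the authors used FastQC, Bowtie2, SAMtools, MACS2 and deepTools with mm10 (GRCm38), and no settings or versions are given in the sources used here. Whether the inputs served as controls, or libraries were pooled, is not given either. Each deposited list gives per peak a fold enrichment (a linear ratio over background), p and q as −log10 values and a whole-number score equal to 10 times the −log10 q with decimals dropped. These columns were identified from the deposited values, as the lists have no header. The smallest deposited −log10 q was 2.0 to 2.08, so the lists end near q = 0.01. Depth is unknown.

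Peaks (at least 1 bp of overlap) were read within 1000 bp on each side of the most upstream start per gene in the RefSeq promoter table (GRCm38.p6), with Python 3.11.15, numpy 2.4.6, pandas 2.3.3 and scipy 1.17.1. The strongest peak by fold enrichment represented a start. Shares have 95% Wilson intervals, and no test was made, since each antibody had 1 library. The window reading was tested on simulated peaks. Named members are the 5 highest and 5 lowest per list (as far as needed), all members that lack a factor or mark or carry a Polycomb feature (up to 10), those with the nearest neighbouring starts, and 10 of central role. For N-MYC, which 18 members lack, they are named within their combinations of factors. Members and gene lists were chosen with earlier results of these data known. Alternatives changed the window, overlap, peak threshold, list length, start and member set.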

Additional observations from a re-analysis of the deposited data

How the results depend on the processing

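Under 11 alternative settings, 3 of them added after seeing the data, 57 of 66 values stayed inside the 95% interval of the reported share or median. For the median fold enrichments this interval was 27.1 to 30.6 (H3K4me3) and 6.17 to 8.1 (N-MYC). The 9 values that moved all came from stricter peak lists and concerned EZH2, p300 and the 3 factors together. At a q of at most 1e-05, EZH2 was at 71% of members (all genes 40.4%), p300 at 79.7% (36.7%) and N-MYC, EZH2 and p300 together at 47.8% (22.0%). At a fold enrichment of at least 4 these were 69.6% (40.0%), 72.5% (33.7%) and 43.5% (20.3%). With the top 9798 peaks by p-value of each list they were 46.4% (33.7%), 73.9% (34.0%) and 33.3% (19.0%). By construction these settings leave fewer peaks. In each of them the members' share stayed above that of all genes. Genes with H3K4me3, the closer background, were not read at these settings. Whether the members stay above that background there was not tested. Among starts with an EZH2 peak, the lower quartile of fold enrichment was 4.235 at members and 4.643 at genes with H3K4me3. No paired analysis was possible because each antibody had 1 library. The lists give no depth, so weak sites below the authors' threshold were not detectable.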
